A study of Homo sapiens with 12 samples.

Results

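SW48, a colorectal cancer line, was compared with OVK18, an ovarian cancer line, in the 4 libraries that carried a control guide, out of 12 libraries in all. Both lines are known for microsatellite instability, the length change of short DNA repeats that follows loss of mismatch repair, and both expressed the Cas9 nuclease. The 4 libraries were chosen by guide and line alone: 2 of SW48 and 2 of OVK18, labelled A and B, from cells collected 72 h after delivery of sgCh2-2, a guide that cuts an intergenic site on chromosome 2. The other 8 libraries carried sgWRN2 or sgWRN3, guides against the helicase gene WRN, with 2 libraries for each line and guide. Those 8 libraries entered the fit that estimates the spread, and their own difference between the lines is given at the end. The cut at the control site and the Cas9 transgene are thus common to both sides of the comparison, and cells without a guide were not analysed here. The labels do not say whether the Cas9 cells were clones, or whether A and B came from separate cultures, so p-values measure only the spread between these libraries.

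Total counts were 30752291 and 18301780 in SW48 (A, then B) and 26052553 and 32581625 in OVK18. Throughout, pairs of values are libraries A and B in that order, as CPM, counts scaled by sequencing depth with TMM normalisation. Log2 differences are SW48 minus OVK18, and adjusted p values come from edgeR's quasi-likelihood test over all 14199 genes tested. Standard errors (SE) were calculated back from that test, as the absolute log2 difference divided by the square root of its F statistic. Intervals of a difference were built from this SE. A gene is called past 2-fold when the edgeR test against a minimum difference of 2-fold gives an adjusted p under 0.05. Genes at 0 in a line have no finite ratio: for these a lower bound is given, set by a floor of 3 counts over both libraries of that line (0.0603 CPM in SW48, 0.0517 CPM in OVK18). These floors cover counting error only. Genes with 1 to 3 counts in a line are given by their levels. Where leaving out 1 library moved a fitted difference by more than 1.5-fold, which happened to genes with few counts in 1 line, the value without that library follows. Such a shift can be many times the SE, as for CDH1 and KIT below. For genes with few counts in 1 line the SE and the interval are therefore too narrow.

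A cancer cell line keeps part of the gene program of the tissue it came from. In intestinal epithelium, transcription factors such as CDX2 and HNF4A act on genes for junctions, keratins and absorption, and the Wnt pathway maintains dividing crypt cells. Tissues of the female reproductive tract arise from the Mullerian duct, whose cells are marked by other factors, among them PAX8, EMX2 and WT1. Epithelial cells hold to each other through E-cadherin and desmosomes, and factors of the ZEB, SNAI and TWIST families lower these genes in cells that take on mesenchymal features.

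The lines differed over most of the transcriptome. Of 14199 genes, 9743 (68.6%) passed the test against 0, with 4811 (33.9%) higher in SW48 and 4932 (34.7%) higher in OVK18. Past 2-fold were 4477 genes (31.5%): 2196 (15.5%) higher in SW48 and 2281 (16.1%) higher in OVK18. Both libraries of a line lay on 1 side of both libraries of the other for 84.2% of all tested genes. The median absolute log2 difference over all tested genes was 0.73, and the median signed difference was close to 0. At the other end, 2710 genes (19.1%) had a 95% interval of the difference that lay wholly within 1.5-fold.

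**Figure D1:**
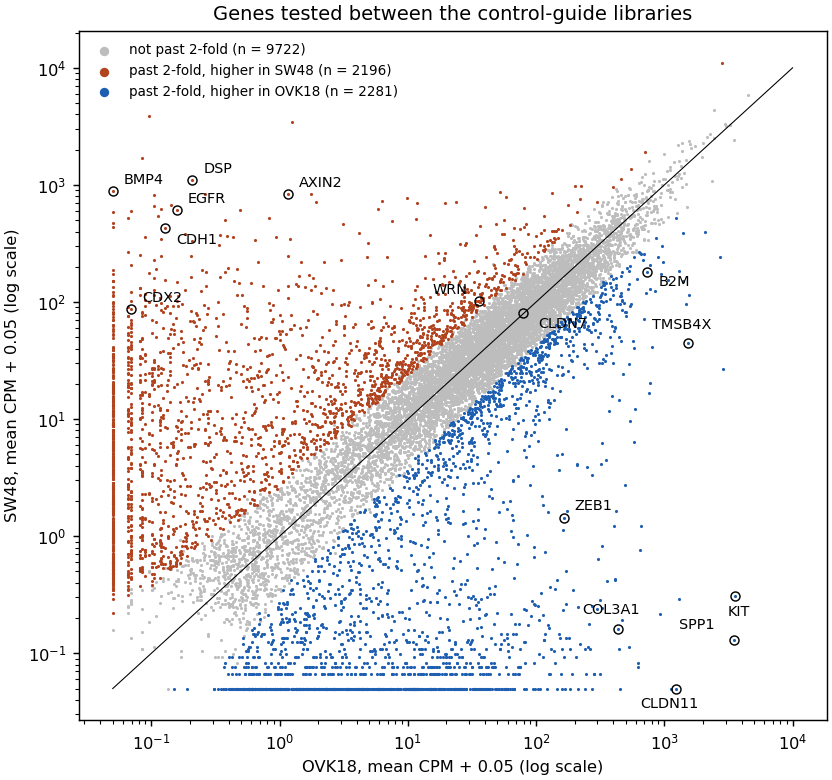
Each point is 1 of the 14199 tested genes, placed by its mean over 2 OVK18 libraries (x axis) and 2 SW48 libraries (y axis), both in CPM + 0.05 on log scales; the line marks equal levels. The 2196 red and 2281 blue genes passed the 2-fold test, and many of them lie along the axes, where 1 line has almost no counts.

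The colorectal label was checked on 10 markers. Their summed level was 255 and 214 CPM in SW48 and 65.8 and 69.7 CPM in OVK18. Within SW48, 6 of the 10 reached 1 CPM, whereas LGALS4, KRT20 and GPA33 stayed under that level and CDX1 was at 0. The 8 Mullerian and ovarian markers summed to 1.20 and 0.867 CPM in OVK18 and none reached 1 CPM as a mean; PAX8, EMX2, WFDC2 and SOX17 were at 0. The same 8 markers summed to 45.8 and 38.8 CPM in SW48, mostly as MSLN. The defining Mullerian markers were thus absent or under 1 CPM in OVK18, and the line is called here by its name alone. Leukocyte markers (5 genes) summed to at most 11.02 CPM in any of the 4 libraries, and endothelial markers (4 genes) to at most 0.270 CPM. The 8 fibroblast markers summed to 481 and 446 CPM in OVK18 and to 0.609 and 0.432 CPM in SW48, nearly all of it from COL3A1.

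Intestinal transcription factors separated the lines, mostly in favour of SW48. Of 24 listed factors 18 were tested, and 13 were past 2-fold higher in SW48 and 4 in OVK18. The shares of all tested genes past 2-fold, 15.5% and 16.1%, are the background here and for each list below. In these and the following lists, a gene that is silent in both lines drops out before testing, and a gene near 0 in 1 line was tested because the other line had it; counts over a list are therefore a description. CDX2, the homeobox factor that sets intestinal fate, stood at 104 and 70.9 CPM in SW48 and 0.0388 and 0 CPM in OVK18. HNF4A, a nuclear receptor of gut and liver, stood at 64.6 and 62.8 CPM in SW48 and had no count in OVK18, at least 1233-fold higher in SW48. Both were thus on in SW48 and at 1 count or none in OVK18.

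Epithelial factors outside that core followed. EHF, an ETS factor of simple epithelia, stood at 767 and 891 CPM in SW48 and 0.272 and 0.155 CPM in OVK18 (log2 difference 11.93, SE 0.21, edgeR adjusted p = 1.23e-12). KLF5, a crypt cell factor, stood at 464 and 579 CPM in SW48 and 0.699 and 0.867 CPM in OVK18 (log2 difference 9.36, SE 0.18, edgeR adjusted p = 1.88e-12). KLF4, a factor of differentiated epithelium, was at 182 and 171 against 0 and 0.0929 CPM, and ELF3 at 24.6 and 22.2 against 0.0388 and 0.0619 CPM. The nuclear receptor gene VDR and the pioneer factor gene FOXA1 were also past 2-fold higher in SW48, by 2.85 and 2.49 on the log2 scale. The exceptions ran the other way without overlap between libraries. GATA4 was at least 270-fold higher in OVK18, whereas its relative GATA6 was at 5.83 and 5.35 CPM in SW48 and 0 and 0.0310 CPM in OVK18. FOXA2, a foregut factor, stood at 104 and 101 CPM in OVK18 and 0.352 and 0.0540 CPM in SW48.

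Few genes of the mature intestine were on in either line. Of 46 listed differentiation genes 15 were tested; 11 were past 2-fold higher in SW48 and 3 in OVK18. CEACAM5, the carcinoembryonic antigen, was at least 1038-fold higher in SW48 (57.5 and 49.8 CPM), and TSPAN8, a tetraspanin, at least 1103-fold higher in SW48 (56.2 and 57.8 CPM). CDH17, intestinal cadherin, stood at 13.3 and 14.6 CPM in SW48 and 0.117 and 0.0619 CPM in OVK18, and VIL1, a brush border actin binder, at 1.47 and 2.16 CPM in SW48 and 0 and 0.124 CPM in OVK18. Of the mucins, MUC13 was at 9.58 and 8.64 CPM in SW48 and 0.0388 and 0 CPM in OVK18, whereas MUC1 was higher in OVK18 at 5.75 and 5.79 against 1.06 and 0.702 CPM. AGR2, a protein disulfide isomerase of secretory cells, was higher in OVK18 as well (12.4 and 14.03 against 0.673 and 0.378 CPM). MUC2, TFF3, FABP1 and SLC26A3, which mark goblet cells or absorptive cells, had no count in any of the 4 libraries.

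Of the 28 Mullerian and gynaecological tract genes, 15 were tested; 7 were past 2-fold higher in SW48 and 4 in OVK18. The SW48 count was 4 with DESeq2, 2 with a minimum mean of 5 CPM, 2 on log2(FPKM + 1) and 3 on log2(FPKM + 0.1), and the OVK18 count was 2 with the minimum and on both FPKM scales. Mesothelin, MSLN, stood at 40.7 and 34.4 CPM in SW48 and 0.0388 and 0.0929 CPM in OVK18. KLK6, a secreted serine protease raised in ovarian carcinoma, had 117 and 109.8 CPM in SW48 and no count in OVK18, at least 2193-fold higher in SW48. On the OVK18 side, PAX2, a factor of the Mullerian and nephric ducts, had no count in SW48 and was at least 171-fold higher in OVK18. SPP1, the secreted phosphoprotein osteopontin, was among the most abundant OVK18 transcripts at 3389 and 3542 CPM, with 5 counts in SW48 library A and none in B. ESR1 and PGR, the estrogen and progesterone receptors, did not pass the filter on low counts.

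Junction genes were mostly higher in SW48. Of 32 epithelial junction genes 31 were tested; 24 were past 2-fold higher in SW48 and 2 in OVK18, with a median log2 difference of 6.69 when genes at 0 are set to their bound, beside a median near 0 over all tested genes. E-cadherin, CDH1, stood at 450.4 and 408 CPM in SW48 and 0.155 and 0 CPM in OVK18 (log2 difference 12.49, SE 0.33, edgeR adjusted p = 8.37e-12, 16.21 without OVK18 library A, 11.37 without OVK18 library B). EPCAM, an epithelial adhesion molecule, stood at 583 and 649 CPM in SW48 and 0.233 and 0.650 CPM in OVK18 (log2 difference 10.36, SE 0.26, edgeR adjusted p = 7.15e-12, 11.33 without OVK18 library B), and P-cadherin, CDH3, at 112 and 89.4 against 0 and 0.0929 CPM. All 3 were under 1 CPM in both OVK18 libraries.

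The regulators and proteases of epithelium were split in the same way. ESRP1, which directs epithelial splicing, stood at 218 and 240 CPM in SW48 and 0.0777 and 0.0310 CPM in OVK18. GRHL2 and GRHL3, grainyhead factors that maintain epithelial genes, were at 68.6 and 68.3 against 0.117 and 0.186 CPM and 159 and 144 against 0.311 and 0.464 CPM. OVOL1 and OVOL2, zinc finger factors that repress mesenchymal genes, were at 20.98 and 17.99 against 0.0388 and 0.124 CPM and 12.2 and 11.7 against 0.0388 and 0.0310 CPM. The membrane protease gene ST14 had 285 and 215 against 0 and 0.0619 CPM and its inhibitor gene SPINT1 was at least 3602-fold higher in SW48. All 7 tested transcription and splicing genes and all 7 polarity and protease genes of the list were past 2-fold higher in SW48, though ESRP2, with 44.8 and 44.6 against 18.9 and 16.997 CPM, was well expressed in both lines.

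Tight junction genes were mixed. MARVELD3, a tight junction membrane protein gene, stood at 49.6 and 46.4 CPM in SW48 and 0.699 and 0.588 CPM in OVK18 (log2 difference 6.22, SE 0.26, edgeR adjusted p = 5.18e-10). TJP1, the ZO-1 scaffold, was instead higher in OVK18, at 1369 and 1434 against 383 and 391 CPM (log2 difference -1.86, SE 0.10, edgeR adjusted p = 4.87e-09), as was cingulin, CGN (46.02 and 42.2 against 16.3 and 15.3 CPM). CLDN7, a claudin, stood at 85.7 and 74.9 CPM in SW48 and 83.5 and 75.7 CPM in OVK18, overlapping between the lines (log2 0.01, SE 0.17). A tight junction component of another kind, CLDN11, is the OVK18 gene with the highest bound of all and is described with the genes that are off in 1 line.

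Desmosome genes and keratins were mostly higher in SW48, with 20 of 24 tested genes (30 listed) past 2-fold higher there and DSC1 in OVK18. The SW48 count was 13 with a minimum mean of 5 CPM, 12 on log2(FPKM + 1) and 13 on log2(FPKM + 0.1). In those settings the OVK18 count was 0, and it was 2 without SW48 library B or without OVK18 library B. Desmoplakin, DSP, which anchors keratin to the desmosome, stood at 1101 and 1103 CPM in SW48 and 0.194 and 0.124 CPM in OVK18 (log2 difference 12.74, SE 0.20, edgeR adjusted p = 9.19e-13). Desmoglein 2, DSG2, was at 662 and 747 CPM in SW48 and 19.6 and 19.3 CPM in OVK18 (log2 difference 5.18, SE 0.13, edgeR adjusted p = 6.4e-12), and periplakin, PPL, at 47.9 and 49.9 against 0.932 and 0.805 CPM. The keratins of simple epithelium followed: KRT8 at 929 and 757 CPM in SW48 and 1.75 and 1.64 CPM in OVK18 (log2 difference 8.96, SE 0.22, edgeR adjusted p = 5.79e-12), KRT18 at 775 and 615 against 13.4 and 9.94 CPM and KRT19 at 152 and 145 against 0.155 and 0.0619 CPM. KRT10 did not differ beyond the test (16.3 and 21.2 CPM in SW48, 15.7 and 16.4 CPM in OVK18, log2 0.22, adjusted p = 0.346). DSC1 was low in both lines, at 1.51 and 1.27 against 0.160 and 0.108 CPM.

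ZEB1 and ZEB2 bind E-box sequences that contain CAGGTG, so the bases before the start of junction genes were searched for these letters on both strands (CAGGTG or CACCTG). The windows are the 250 bases upstream of the RefSeq start on GRCh38.p14, a build other than the one the counts were made on. Of all 27305 such windows, 17.5% held at least 1 match and 2.55% at least 2. Among the epithelial junction genes 16 had a window and 5 held a match (31.2%), and among desmosome genes and keratins 5 of 13 did (38.5%). These shares were not tested against that of all windows. The windows of CRB3, a polarity protein gene with 12.1 and 8.97 against 0.117 and 0.155 CPM, and of DSP are shown, with their 5 and 2 matches in capitals: CRB3 held the most, and DSP is the desmosome gene described above. DSG2 also held 2. CDH1 had no window. OCLN and TJP1, which were not higher in SW48, held 1 match each. Most genes of both lists were higher in SW48, so these windows cannot show whether a match goes with a line. A match is a string of letters and not a measured binding site.
CRB3, chr19:6464021-6464270, plus strand: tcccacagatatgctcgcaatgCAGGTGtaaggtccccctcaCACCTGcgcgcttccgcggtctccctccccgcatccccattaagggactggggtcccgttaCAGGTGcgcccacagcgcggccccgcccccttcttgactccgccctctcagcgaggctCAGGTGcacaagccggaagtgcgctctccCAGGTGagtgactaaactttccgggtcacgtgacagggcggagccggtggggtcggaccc
DSP, chr6:7541421-7541670, plus strand: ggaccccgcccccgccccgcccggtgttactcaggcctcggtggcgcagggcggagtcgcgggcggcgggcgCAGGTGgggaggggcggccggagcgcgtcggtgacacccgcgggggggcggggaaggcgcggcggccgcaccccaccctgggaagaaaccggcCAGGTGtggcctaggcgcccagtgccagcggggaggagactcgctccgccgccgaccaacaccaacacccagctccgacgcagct

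**Figure D2:**
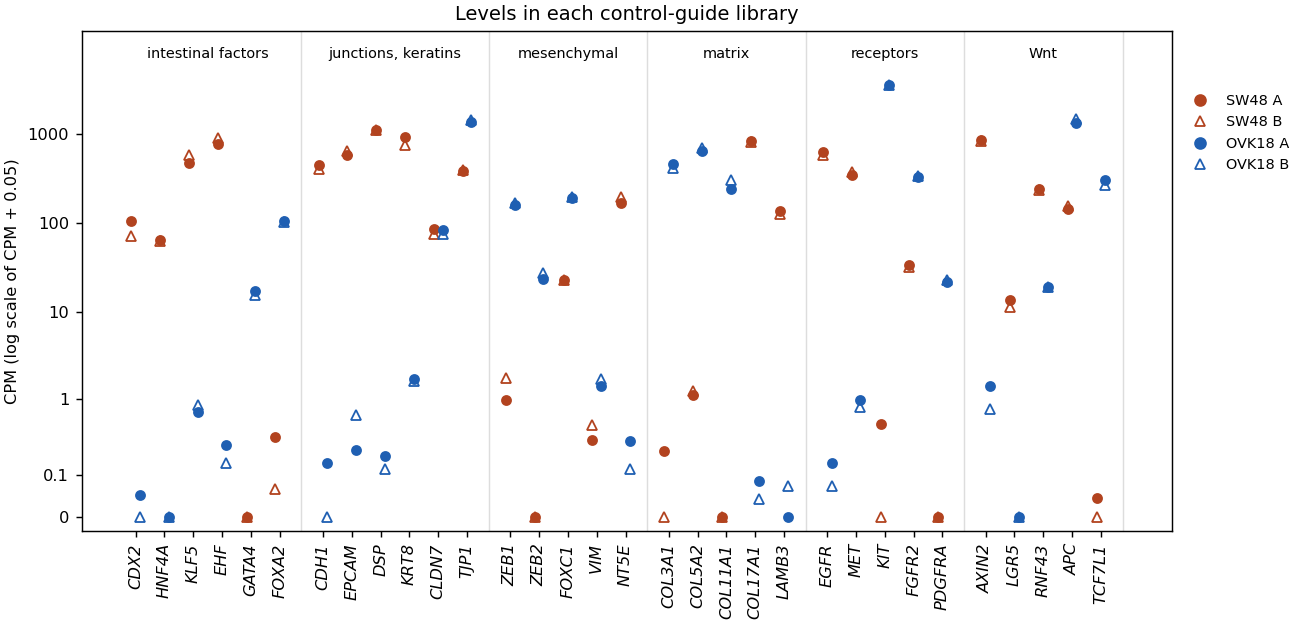
CPM in each of the 4 control-guide libraries (y axis, log scale of CPM + 0.05) for genes of 6 roles; filled circles are library A, open triangles library B, red SW48 and blue OVK18. For CDH1, DSP, EGFR and AXIN2 the red symbols lie far above the blue ones, for ZEB1, KIT and COL3A1 far below, and for CLDN7 all 4 symbols lie together.

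Mesenchymal genes were divided rather than uniformly higher in OVK18. Of 33 listed genes 22 were tested, with 11 past 2-fold higher in OVK18 and 6 in SW48. The OVK18 count was 5 with a minimum mean of 5 CPM, 6 on log2(FPKM + 1) and 6 on log2(FPKM + 0.1). The SW48 count was 4 to 6 over all alternatives, so the larger OVK18 count depends on the processing. ZEB1 stood at 160.5 and 169 CPM in OVK18 and 0.993 and 1.78 CPM in SW48 (log2 difference -6.97, SE 0.22, edgeR adjusted p = 4.34e-11). ZEB2 was at least 418-fold higher in OVK18 (23.4 and 27.1 CPM), and TWIST1, another repressor of E-cadherin, at least 65.2-fold higher in OVK18 (3.53 and 4.33 CPM). FOXC1 was at 191 and 194 against 22.7 and 22.6 CPM. SNAI2 and TWIST2 were not tested, and SNAI1 did not pass the test (4.07 and 3.78 CPM in SW48, 3.34 and 1.95 CPM in OVK18) but did without OVK18 library A (log2 0.999, edgeR adjusted p = 0.0264).

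Of the adhesion and cytoskeleton genes of this list 8 were tested, with 4 past 2-fold higher in SW48 and 3 in OVK18. Vimentin, VIM, the intermediate filament of mesenchymal cells, was low in both lines, at 1.44 and 1.73 CPM in OVK18 and 0.320 and 0.486 CPM in SW48 (log2 difference -2.03, SE 0.36, edgeR adjusted p = 0.000309). N-cadherin, CDH2, reached only 3.22 and 3.53 CPM in OVK18 and had no count in SW48. NT5E, the surface enzyme CD73, was higher in SW48 at 166 and 197 against 0.311 and 0.124 CPM (log2 difference 9.74, SE 0.23, edgeR adjusted p = 4.83e-12, 10.44 without OVK18 library A), as were S100A4 (59.1 and 58.998 against 1.24 and 1.05 CPM) and endoglin, ENG (at least 382-fold higher in SW48). Among the transcription factors, PRRX1, a mesenchymal homeobox factor, was at least 123-fold higher in SW48 (5.70 and 7.02 CPM). OVK18 therefore had ZEB1, ZEB2 and TWIST1 transcripts without an abundant vimentin or N-cadherin transcript.

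Interstitial matrix genes leaned to OVK18, with 14 of 21 tested genes (33 listed) past 2-fold higher there and 5 in SW48. The OVK18 count was 6 with a minimum mean of 5 CPM, 6 on log2(FPKM + 1) and 7 on log2(FPKM + 0.1). In the same settings the SW48 count was 2, 2 and 3. The fibrillar collagen gene COL3A1 stood at 455 and 417 CPM in OVK18 and 0.224 and 0 CPM in SW48 (log2 difference -11.55, SE 0.28, edgeR adjusted p = 4.98e-12, -16.21 without SW48 library A, -10.90 without SW48 library B). COL5A2 was at 639 and 686 CPM in OVK18 and 1.12 and 1.24 CPM in SW48 (log2 difference -9.14, SE 0.15, edgeR adjusted p = 9.19e-13), and COL11A1 was at least 4500.4-fold higher in OVK18 (243 and 299.9 CPM). COL1A1 and COL1A2, the chains of the most common fibrillar collagen, were low in OVK18, at 0.699 and 1.52 and 1.63 and 1.49 CPM. FBLN1, a fibulin, stood at 89.6 and 73.7 CPM in OVK18 and 0.0961 and 0.0540 CPM in SW48. In SW48 the higher members included COL6A1 (132 and 98.3 against 39.6 and 34.2 CPM) and tenascin C, TNC (30.05 and 32.1 against 2.33 and 2.88 CPM).

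Basement membrane genes leaned to SW48, with 9 of 19 tested genes (24 listed) past 2-fold higher there and 4 in OVK18. LAMB3 and LAMA3, chains of laminin 332, stood at 137 and 125 against 0 and 0.0619 CPM and at 70.7 and 66.8 against 9.71 and 10.8 CPM (log2 difference 2.74, SE 0.11, edgeR adjusted p = 3.52e-10). COL17A1, the transmembrane collagen of hemidesmosomes, was at 838 and 806 CPM in SW48 with 3 counts in OVK18. Nidogen, NID1, was higher in OVK18 (134 and 139.6 CPM, with 2 counts in SW48). Of 21 integrin genes 15 were tested, with 7 past 2-fold higher in SW48 and 3 in OVK18. ITGB4, which binds laminin 332, was at 389.8 and 327 against 0.583 and 0.186 CPM (log2 difference 9.92, SE 0.32, edgeR adjusted p = 4.04e-11, 10.86 without OVK18 library A, 9.25 without OVK18 library B), and ITGA2, a collagen receptor chain, at 156 and 162 against 0.0777 and 0.0310 CPM. ITGB1 and ITGA5, which together form a fibronectin receptor, were higher in OVK18 at 2039 and 2108 against 387 and 403 CPM and 73.1 and 63.7 against 11.9 and 10.7 CPM. ITGB5 and ITGAE did not pass the test.

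HOX genes encode factors that give positional identity along the body axis and lie in 4 clusters. Of 39 listed genes 37 were tested; 20 were past 2-fold higher in OVK18 and 7 in SW48. The counts differed by cluster. All 9 HOXC genes were past 2-fold higher in OVK18, among them HOXC10 at 354 and 339 against 32.96 and 29.2 CPM (log2 difference -3.48, SE 0.10, edgeR adjusted p = 2.4e-11), HOXC13 at 336 and 308 against 4.55 and 3.67 CPM and HOXC4 at 109 and 117 against 1.76 and 1.84 CPM. HOXC12 was at least 387-fold higher in OVK18. In HOXD, 5 of 8 tested genes were past 2-fold higher in OVK18, and HOXD10 and HOXD11 had no count in SW48, but their levels in OVK18 were only 4.19 and 4.52 and 2.80 and 2.91 CPM. HOXD3 was the exception (1.03 and 0.918 against 0.194 and 0.155 CPM).

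HOXB7, HOXB8 and HOXB9 were the main SW48 group of the HOXB cluster. HOXB9 stood at 422 and 343 CPM in SW48 and 57.9 and 50.5 CPM in OVK18 (log2 difference 2.82, SE 0.14, edgeR adjusted p = 1.92e-09), HOXB8 at 112 and 85.8 against 4.89 and 5.45 CPM and HOXB7 at 75.9 and 71.96 against 21.8 and 23.5 CPM. HOXB2 and HOXB4, lower-numbered genes of the cluster, were past 2-fold higher in OVK18 (32.4 and 30.4 against 10.4 and 10.6 CPM and 13.6 and 18.1 against 3.43 and 4.38 CPM). HOXA genes ran both ways: HOXA7 and HOXA9 were higher in SW48 (20.3 and 16.9 against 2.72 and 2.91 CPM and 4.23 and 3.57 against 0.699 and 0.341 CPM), and HOXA13 was higher in OVK18 (118 and 129 against 14.2 and 14.6 CPM, log2 -3.10). HOXA6 did not pass the test. Neighbouring genes of a cluster can share reads through overlapping transcripts, and strand use in counting is not given in the sources used here.

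**Figure D3:**
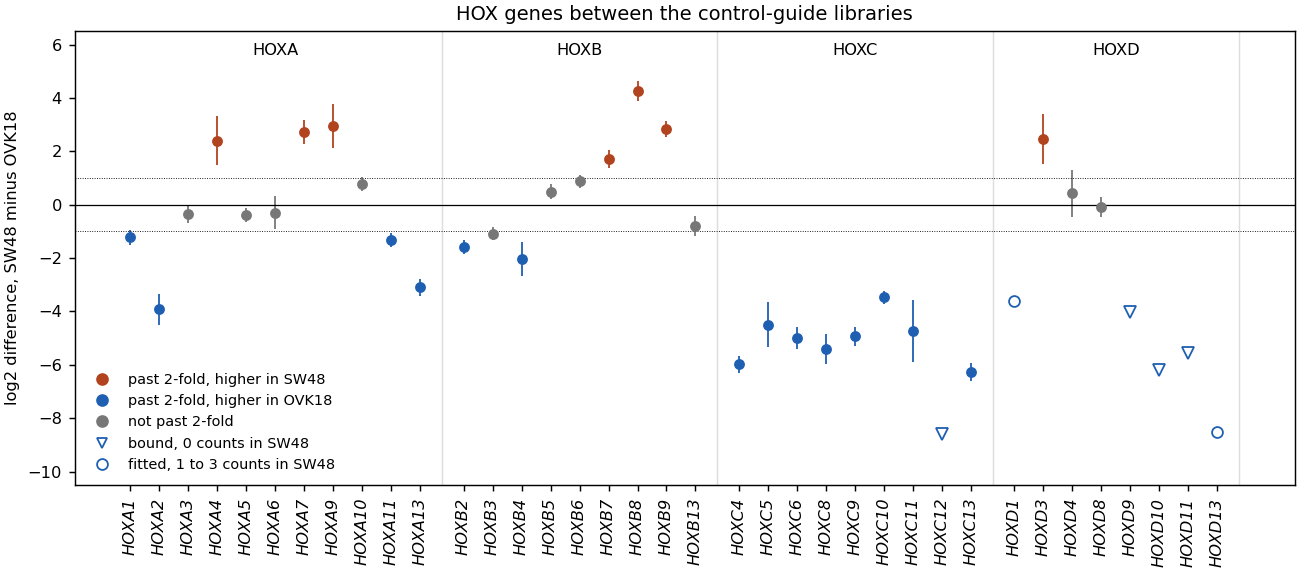
Log2 difference, SW48 minus OVK18, of the 37 tested HOX genes by cluster, with 95% intervals; dotted lines mark 2-fold, open triangles mark bounds for genes with no count in SW48, and open circles fitted values with 1 to 3 counts there. All 9 HOXC genes lie below the lower line, whereas HOXB7, HOXB8 and HOXB9 lie above the upper one.

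Other lineage factors were more often higher in OVK18, with 19 of 34 tested genes (55 listed) past 2-fold there and 7 in SW48. SIX2, a homeobox factor of kidney progenitors, was at least 1388-fold higher in OVK18 (90.1 and 77.4 CPM). SOX5, a factor of cartilage and neural development, was at least 2759.7-fold higher in OVK18 (165 and 168 CPM). TBX2 stood at 350.1 and 302 CPM in OVK18 and 0.224 and 0.162 CPM in SW48 (log2 difference -10.63, SE 0.29, edgeR adjusted p = 1.21e-11), whereas its paralog TBX3 was at least 796-fold higher in SW48 (42.3 and 39.98 CPM). MEIS1 and GATA3 had no count in SW48 and 19.5 and 21.1 and 42.6 and 40.5 CPM in OVK18. SOX9, a crypt and progenitor factor that SW48 also expressed, was higher in OVK18 at 774 and 771 against 195 and 221 CPM (log2 difference -1.89, SE 0.14, edgeR adjusted p = 7.48e-08).

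Embryonic and germline genes were also mostly an OVK18 group: 27 of 48 were tested, with 19 past 2-fold higher in OVK18 and 6 in SW48. Cancer-testis genes, which are normally restricted to germ cells, accounted for 12 of the 19. PRAME stood at 323 and 331 CPM in OVK18 and 0.801 and 0.756 CPM in SW48 (log2 difference -8.69, SE 0.16, edgeR adjusted p = 1.59e-12). MAGEA3 was at least 849-fold higher in OVK18 (53.7 and 48.8 CPM), and MAGEC2 stood at 68.2 and 67.7 CPM with 1 count in SW48. The MAGEA genes are near-identical copies, so counts of MAGEA3 and MAGEA6 may be divided between them. PAGE1 was the 1 tested cancer-testis gene that did not pass, at 0.124 CPM or less in every library.

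Oncofetal RNA-binding proteins differed by paralog. LIN28A, which blocks let-7 maturation, was at least 983-fold higher in OVK18 (59.3 and 59.3 CPM). IGF2BP1 stood at 272 and 269 CPM in OVK18 and 0.0320 and 0.378 CPM in SW48 (log2 difference -10.65, SE 0.28, edgeR adjusted p = 8.89e-12, -9.47 without SW48 library A, -12.83 without SW48 library B), whereas IGF2BP2 was higher in SW48 at 93.3 and 92.5 against 0.427 and 0.526 CPM (log2 difference 7.58, SE 0.22, edgeR adjusted p = 1.77e-11). HMGA2, a chromatin protein and let-7 target, was also higher in SW48, at 87.6 and 107 against 0.0777 and 0.0619 CPM. Of the imprinted genes, PEG10 was at 198 and 192 against 0.320 and 0.270 CPM in OVK18 and SW48, and MEST was at least 1594-fold higher in SW48 (80.4 and 84.4 CPM). POU5F1 stayed under 1 CPM, and NANOG and AFP had no count in any of the 4 libraries.

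The Wnt pathway stabilises beta-catenin, which with TCF and LEF factors switches on target genes, several of which feed back on the receptors. Of 62 listed genes 50 were tested, with 23 past 2-fold higher in SW48 and 11 in OVK18. Among 12 targets, 11 were called higher in SW48 and 9 past 2-fold. AXIN2, a negative regulator and general target, stood at 852 and 826 CPM in SW48 and 1.44 and 0.774 CPM in OVK18 (log2 difference 9.60, SE 0.19, edgeR adjusted p = 1.88e-12). ZNRF3 and RNF43, ubiquitin ligases that remove Wnt receptors, were at 250.4 and 269 against 18.5 and 20.1 CPM and 240.2 and 232 against 19.03 and 18.9 CPM (log2 difference 3.64, SE 0.10, edgeR adjusted p = 1.39e-11 for RNF43). NOTUM, a secreted Wnt deacylase, was at 66.6 and 52.9 against 9.09 and 5.88 CPM, and LGR5, the crypt stem cell receptor, was at least 239-fold higher in SW48 (13.5 and 11.2 CPM). NKD2 was the 1 target that did not pass the test (5.70 and 3.998 CPM in SW48, 3.57 and 3.03 CPM in OVK18).

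Some targets were less far apart. MYC stood at 333 and 266 CPM in SW48 and 122 and 109 CPM in OVK18 (log2 difference 1.38, SE 0.13, edgeR adjusted p = 1.11e-06), and CCND1, cyclin D1, at 606 and 642 CPM in SW48 and 287 and 276 CPM in OVK18, which was called but was not past 2-fold (adjusted p = 0.0581 in the 2-fold test). BMP4, a growth factor counted among both the Wnt targets and the BMP ligands, had 966 and 814 CPM in SW48 and no count in OVK18, at least 17226-fold higher in SW48. SP5, a zinc finger factor, was at least 110.1-fold higher in SW48 at 6.41 and 4.97 CPM. TCF and LEF factors bind a core that contains CTTTGA, which was found in 11.4% of all windows (CTTTGA or TCAAAG, at least 1 match) and, among the 5 Wnt targets with a window, in SP5 alone. Its 3 matches are shown in capitals in the 250 bases upstream of the start.
SP5, chr2:170715087-170715336, plus strand: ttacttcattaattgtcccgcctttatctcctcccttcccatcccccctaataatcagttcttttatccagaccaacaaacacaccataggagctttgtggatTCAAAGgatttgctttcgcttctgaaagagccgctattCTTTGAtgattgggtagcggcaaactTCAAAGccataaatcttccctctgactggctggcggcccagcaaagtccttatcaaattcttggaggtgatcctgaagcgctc

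The other roles of the Wnt pathway were mixed. Past 2-fold were 8 of 16 receptor genes higher in SW48 and 3 in OVK18, and 4 of 10 tested ligand genes (16 listed) higher in SW48 and 2 in OVK18. All 4 tested secreted inhibitors (10 listed) were past 2-fold higher in OVK18, among them DKK1 (6.37 and 7.06 against 0.128 and 0.0540 CPM) and SFRP1 (at least 76.9-fold higher in OVK18), though none exceeded the level of DKK1. APC, a scaffold of the beta-catenin destruction complex, stood at 1320.5 and 1478 CPM in OVK18 and 143 and 156 CPM in SW48 (log2 difference -3.22, SE 0.13, edgeR adjusted p = 2.73e-10). TCF7L1, a mostly repressive TCF, stood at 302 and 264 CPM in OVK18 with 1 count in SW48, whereas TCF7 was higher in SW48 (62.02 and 52.2 against 6.60 and 5.73 CPM). Of the receptors, FZD7 was higher in SW48 (67.7 and 78.9 against 11.4 and 11.5 CPM) and FZD8 and LGR4 in OVK18 (70.6 and 60.7 against 1.06 and 0.810 CPM and 412 and 413 against 56.4 and 66.2 CPM). CTNNB1, beta-catenin itself, was called higher in OVK18 but not past 2-fold (534 and 521 against 369 and 383 CPM, log2 -0.49), and FZD3 did not pass the test.

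Receptor tyrosine kinases differed in most families: of 45 listed 31 were tested, with 16 past 2-fold higher in SW48 and 10 in OVK18. The epidermal growth factor receptor gene EGFR stood at 629.9 and 584 CPM in SW48 and 0.155 and 0.0619 CPM in OVK18 (log2 difference 12.44, SE 0.28, edgeR adjusted p = 4.03e-12, 13.12 without OVK18 library A). MET, the receptor of hepatocyte growth factor, was at 343 and 375 CPM in SW48 and 0.971 and 0.805 CPM in OVK18 (log2 difference 8.66, SE 0.18, edgeR adjusted p = 1.98e-12), and IGF1R at 98.1 and 92.2 against 0.738 and 0.929 CPM. ERBB3 and DDR1 were also higher in SW48, at 156 and 153 against 5.98 and 5.08 CPM and 270 and 223 against 14.4 and 12.5 CPM. ERBB2 was called higher in SW48 but not past 2-fold (165 and 132 against 68.1 and 60.03 CPM).

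In OVK18 the leading receptor gene was KIT, the stem cell factor receptor, at 3534 and 3563 CPM. In SW48 it had 16 counts in library A and none in B (log2 difference -13.42, SE 0.38, edgeR adjusted p = 1.66e-11, -19.23 without SW48 library A, -12.75 without SW48 library B). KITLG, which encodes its ligand and was singled out after its values were seen, had the reverse pattern, at 415 and 591 CPM in SW48 and 0.427 and 0.217 CPM in OVK18 (log2 difference 10.63, SE 0.29, edgeR adjusted p = 1.11e-11). FGFR2 stood at 331 and 338 CPM in OVK18 and 33.7 and 31.9 CPM in SW48 (log2 difference -3.35, SE 0.10, edgeR adjusted p = 1.65e-11), and FGFR1 at 39.8 and 37.5 against 0.0320 and 0.0540 CPM. PDGFRA was at least 371-fold higher in OVK18 (21.6 and 23.2 CPM), and AXL was at 15.2 and 13.5 against 0.865 and 0.918 CPM. Receptor and ligand transcripts of the KIT pair were thus abundant in different lines.

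Genes of the MAPK cascade's output include feedback genes, which are induced by active ERK and restrain it, and immediate-early factors. Of 25 listed and tested genes, 10 were past 2-fold higher in SW48 and 5 in OVK18. Among the 9 feedback genes 2 were past 2-fold higher in SW48 and 4 in OVK18. Among the 10 immediate-early genes these counts were 5 and 1. Over all tested genes the shares were 15.5% and 16.1%. DUSP6 and DUSP4, phosphatases of ERK, stood at 133 and 143 against 0.311 and 0.124 CPM and 241 and 251 against 0.0777 and 0.0619 CPM in SW48 and OVK18 (log2 difference 9.34, SE 0.22, edgeR adjusted p = 4.49e-12, 10.04 without OVK18 library A for DUSP6). SPRY2 and SPRY4, Sprouty inhibitors of receptor signalling, were higher in OVK18 at 143 and 147 against 24.3 and 23.2 CPM and 251 and 236 against 38.6 and 38.4 CPM (log2 difference -2.66, SE 0.10, edgeR adjusted p = 1.79e-10 for SPRY4). PHLDA1 was at 646 and 813 against 5.55 and 6.94 CPM, and the immediate-early factor genes EGR1 and EGR3 were at 427 and 422 against 68.3 and 66.7 CPM and 60.8 and 66.9 against 1.09 and 1.42 CPM, higher in SW48. DUSP5 did not pass the test.

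TGF-beta and BMP genes were divided, with 10 of 30 tested genes (37 listed) past 2-fold higher in SW48 and 8 in OVK18. Over all tested genes these shares were 15.5% and 16.1%. Among ligands, TGFB2 was at 71.98 and 83.4 against 1.28 and 1.08 CPM and BMP7 at 64.8 and 55.9 against 0.117 and 0.0310 CPM, higher in SW48, and TGFB3 was higher in OVK18 (39.9 and 37.96 against 2.72 and 2.97 CPM). SMAD3, a receptor-activated transcription factor, stood at 1525 and 1446 CPM in OVK18 and 93.3 and 98.2 CPM in SW48 (log2 difference -3.96, SE 0.10, edgeR adjusted p = 7.58e-12). SKIL, a SMAD corepressor, was at 486 and 577 against 22.1 and 37.3 CPM, and the inhibitor SMAD6 at 31.2 and 32.2 against 3.33 and 3.94 CPM, again higher in OVK18. SMAD7, another inhibitor, and ID1 and ID2, BMP targets, were higher in SW48 at 69.7 and 71.5 against 1.36 and 1.86 CPM, 130 and 121 against 34.2 and 28.1 CPM and 349 and 402 against 31.6 and 36.8 CPM. SMAD2 did not pass the test (153 and 173 CPM in SW48 and 147 and 156 CPM in OVK18).

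Notch and Hedgehog genes were close to evenly divided, with 6 of 23 tested (28 listed) past 2-fold higher in SW48 and 7 in OVK18. Over all tested genes these shares were 15.5% and 16.1%. NOTCH3 stood at 49.2 and 40.99 CPM in OVK18 and 2.24 and 1.89 CPM in SW48 (log2 difference -4.42, SE 0.22, edgeR adjusted p = 2.58e-09), and JAG1, a Notch ligand, at 417 and 409.9 against 62.9 and 57.4 CPM, both higher in OVK18. HEYL, a Notch target, was at least 204-fold higher in OVK18 (13.6 and 10.99 CPM), whereas NRARP, another target, was higher in SW48 (65.8 and 68.99 against 0.932 and 0.712 CPM). SMO and GLI1, the transducer and an effector of Hedgehog, were higher in OVK18 at 34.5 and 27.2 against 0.224 and 0.270 CPM and 15.3 and 14.7 against 0.448 and 0.540 CPM. The ligand gene SHH had 2.34 and 1.73 CPM in SW48 and no count in OVK18.

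Of the mismatch repair genes 7 were tested, and none was past 2-fold. MSH6, a MutS subunit, was called higher in OVK18 at 251 and 244 against 136 and 142 CPM (log2 difference -0.83, SE 0.09, edgeR adjusted p = 4.74e-06), as was PMS1 (77.5 and 94.1 against 42.3 and 56.4 CPM). The exonuclease gene EXO1 was called higher in SW48, by 0.70 on the log2 scale. The call of PMS1 was lost without SW48 library A (log2 -0.61, edgeR adjusted p = 0.0554). PMS2, MLH3 and MSH3 did not pass the test, and the 95% interval for PMS2 ran from -0.18 to 0.36.

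RecQ helicases unwind DNA during replication and repair, and WRN is the member whose loss unstable cells tolerate poorly. WRN stood at 91.2 and 112 CPM in SW48 and 32.04 and 39.8 CPM in OVK18 (log2 difference 1.49, SE 0.16, edgeR adjusted p = 3.49e-06) and was past 2-fold higher in SW48 with both libraries above both of OVK18. BLM was at 51.4 and 51.6 CPM in SW48 and 17.6 and 17.6 CPM in OVK18 (log2 difference 1.55, SE 0.14, edgeR adjusted p = 6.74e-07) and RECQL4 at 28.6 and 26.1 against 10.6 and 9.66 CPM, both past 2-fold. RECQL was called the other way but not past 2-fold (88.7 and 94.9 against 61.7 and 73.1 CPM), a call lost without SW48 library A (log2 -0.33, edgeR adjusted p = 0.0655), and RECQL5 did not pass the test (12.3 and 11.3 CPM in SW48, 15.1 and 13.7 CPM in OVK18). Of 50 double-strand break repair genes, all tested, 2 were past 2-fold higher in SW48 and 4 in OVK18, below the 15.5% and 16.1% of all tested genes. The SW48 genes were XRCC2 (41.9 and 43.9 against 8.12 and 10.9 CPM) and FANCA (54.3 and 55.4 against 18.9 and 20.8 CPM). The OVK18 genes were TP53BP1 (139 and 145 against 44.5 and 45.3 CPM, log2 -1.66), LIG4 (64.2 and 80.3 against 16.7 and 23.9 CPM), FANCC (57.5 and 50.99 against 20.5 and 20.04 CPM) and MRE11A (76.3 and 81.5 against 29.5 and 34.8 CPM). PRKDC, the DNA-dependent kinase gene, did not pass the test.

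Of 30 listed genes with coding repeats that are often shifted in unstable tumours, 26 passed the filter and were tested gene by gene. Past 2-fold were 5 higher in SW48 and 4 in OVK18, near the background shares of 15.5% and 16.1%. TGFBR2, a TGF-beta receptor, stood at 83.6 and 87.4 CPM in SW48 and 26.02 and 27.6 CPM in OVK18 (log2 difference 1.67, SE 0.10, edgeR adjusted p = 1.97e-08). SEC63, a translocation protein gene, was lower in SW48, at 26.01 and 32.6 CPM against 235 and 236 CPM (log2 difference -3.01, SE 0.18, edgeR adjusted p = 1.31e-08). DOCK3 was at 56.3 and 69.7 against 2.37 and 1.51 CPM and B2M, described below with antigen presentation, was also higher in OVK18. ACVR2A did not pass the test. Transcript level alone does not show whether a repeat is shifted.

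A list of p53-activated genes that also holds p53 and its regulators had 36 genes, all tested. Of these 13 were called higher in SW48 and 14 in OVK18, shares near the 33.9% and 34.7% of all tested genes. Past 2-fold were 9 and 4. The group of p53 and regulators made up 7 of the 36, and its 1 gene past 2-fold, CDKN2A, is among the 4 of OVK18. CDKN1A, the p21 inhibitor, stood at 412 and 326 CPM in SW48 and 179 and 173 CPM in OVK18 (log2 difference 1.07, SE 0.14, edgeR adjusted p = 2.09e-05) and was not past 2-fold. MDM2, the ligase that degrades p53, was called higher in OVK18 (735 and 833 against 472 and 480.2 CPM). PLK2 and SFN, genes of cell cycle arrest, were higher in SW48 (138 and 135 against 6.06 and 6.59 CPM and 341 and 295 against 29.7 and 26.8 CPM), as were FAS, a death receptor (56.1 and 63.2 against 11.03 and 12.3 CPM), and PMAIP1, the BH3 protein NOXA (17.6 and 24.3 against 0.117 and 0.310 CPM). TP53I3 and TP53INP1 were higher in OVK18 (99.1 and 107 against 22.4 and 16.6 CPM and 267 and 306 against 68.04 and 73.96 CPM). CDKN2A, a locus that encodes p16 and an MDM2 inhibitor, was low in both lines (3.65 and 2.60 against 0.320 and 0.162 CPM in OVK18 and SW48).

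Cell division genes were called higher in SW48 more often than not, by small differences: 28 of 43 were called higher in SW48 and 5 in OVK18, against 33.9% and 34.7% of all tested genes, but only 6 and 2 were past 2-fold. MKI67, a proliferation marker, stood at 601 and 608 CPM in SW48 and 362 and 374 CPM in OVK18 (log2 difference 0.72, SE 0.09, edgeR adjusted p = 2.01e-05). MCM4, a replicative helicase subunit, was at 415 and 400.4 CPM in SW48 and 137 and 129 CPM in OVK18 (log2 difference 1.61, SE 0.09, edgeR adjusted p = 7.49e-09), past 2-fold. CCNB1, the mitotic cyclin, was at 183 and 193 against 125 and 121 CPM, and TYMS did not pass the test. The D cyclins were unlike each other: CCND2 stood at 523 and 525 CPM in SW48 with 1 count in OVK18, whereas CCND1, as given above, was well expressed in both lines. CDK6, their partner kinase, was higher in SW48 (97.3 and 120.2 against 32.7 and 41.7 CPM), and RB1, the protein they inactivate, was called higher in OVK18 (275 and 296 against 109 and 133 CPM, log2 -1.24).

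Class I antigen presentation was divided between heavy and light chain. HLA-B stood at 290 and 260 CPM in SW48 and 78.9 and 67.6 CPM in OVK18 (log2 difference 1.91, SE 0.14, edgeR adjusted p = 1.31e-07) and HLA-C at 264 and 222 against 90.4 and 74.7 CPM, both past 2-fold higher in SW48. B2M, the shared light chain, was higher in OVK18, at 727 and 749 CPM against 172 and 190.3 CPM (log2 difference -2.03, SE 0.12, edgeR adjusted p = 1.65e-08). HLA genes are polymorphic near-copies, so their counts depend on how far a line's alleles match the reference. PSMB8, an immunoproteasome subunit, was at 52.6 and 46.4 CPM in SW48 and 0.194 and 0.186 CPM in OVK18 (log2 difference 7.99, SE 0.23, edgeR adjusted p = 1.9e-11), and NLRC5, the activator of class I genes, at 9.55 and 7.94 against 0.893 and 0.495 CPM. Of the 16 class I genes, 8 were past 2-fold higher in SW48 and B2M alone in OVK18.

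Among 26 sensing and interferon genes 22 were tested, with 8 past 2-fold higher in SW48 and 2 in OVK18. Beside these stand 15.5% and 16.1% of all tested genes. IFIH1 and TLR3, sensors of double-stranded RNA, stood at 46.7 and 47.2 against 0.971 and 0.960 CPM and 24.6 and 24.5 against 0.0777 and 0.0619 CPM, and MX1 was at least 170.2-fold higher in SW48 (9.71 and 7.89 CPM). BST2, tetherin, was higher in OVK18 at 105 and 86.5 against 0.320 and 0.108 CPM (log2 difference -8.61, SE 0.28, edgeR adjusted p = 4.59e-11, -9.72 without SW48 library A), as was ISG15 (log2 -2.09). MB21D1 and TMEM173, which encode the DNA sensor cGAS and its partner STING, stayed at or under 0.372 CPM in all 4 libraries. Class II genes were low: HLA-DMA reached 18.2 and 14.8 CPM in OVK18, and CIITA, the class II activator, had no count in any library.

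Drug and xenobiotic handling genes were divided, with 12 of 29 tested (40 listed) past 2-fold higher in SW48 and 8 in OVK18. GSTM3, a glutathione transferase, was at 167 and 154 CPM in OVK18 and 0.0641 and 0.0540 CPM in SW48. MGMT, which removes alkyl groups from guanine, stood at 23.3 and 18.02 CPM in OVK18 and 0.128 and 0.108 CPM in SW48 (log2 difference -7.35, SE 0.33, edgeR adjusted p = 8.95e-10), and AKR1B1, aldose reductase, was at least 799-fold higher in OVK18 (52.3 and 44.1 CPM). On the SW48 side, ALDH3A1 was at least 1554-fold higher in SW48 (89.7 and 70.9 CPM) and SLC7A11, the cystine transporter, was at 54.7 and 66.99 against 3.38 and 4.02 CPM. The efflux pump gene ABCC4 did not pass the test, and ABCB1 was not tested.

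Of 31 amino acid and one-carbon enzymes, all tested, 7 were past 2-fold higher in SW48 and 6 in OVK18. Beside these stand 15.5% and 16.1% of all tested genes. CBS, which makes cystathionine, stood at 175 and 166 CPM in OVK18 and 0.320 and 0.108 CPM in SW48 (log2 difference -9.44, SE 0.29, edgeR adjusted p = 3.23e-11, -10.55 without SW48 library A). BCAT1, the cytosolic branched-chain transaminase, was at 469.8 and 466 CPM in OVK18 and 0.288 and 0 CPM in SW48, and CKB, brain creatine kinase, at 235 and 180.4 against 3.84 and 4.27 CPM. ASS1, argininosuccinate synthase, was higher in SW48 at 135 and 136 against 1.75 and 1.33 CPM (log2 difference 6.47, SE 0.16, edgeR adjusted p = 6.4e-12), and so was GLS2, a glutaminase, at 50.7 and 50.9 against 0.194 and 0.341 CPM. PSAT1 did not pass the test.

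Many of the largest differences were of genes that 1 line had and the other did not. At 10 CPM or more in both libraries of a line, with at most 3 counts in the other line, were 235 genes of SW48 and 357 of OVK18. By mean level the leading SW48 genes were CD36, a fatty acid receptor (3603 and 4098 CPM, 3 counts in OVK18), S100A6, a calcium-binding protein (1754 and 1653 CPM, 2 counts) and BMP4. LGALS3, galectin 3, had 684 and 650.2 CPM in SW48 and 3 counts in OVK18. KLK7, a serine protease of skin, was at least 11343-fold higher in SW48 (573 and 599.6 CPM), and SERPINB5, maspin, stood at 536 and 651 CPM with 1 count in OVK18. GNAT3, the taste G protein gustducin, and GPR15, a homing receptor, were at least 9235-fold higher in SW48 and at least 8504-fold higher in SW48. Genes named here for the size of the difference also included FRAS1, TES, PTPRO and NPNT, each with no count in OVK18 and 132.6 to 174 CPM in SW48.

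In OVK18 the leading gene was CLDN11, a claudin of oligodendrocytes and Sertoli cells, with 1229.8 and 1234 CPM and no count in SW48, at least 20418-fold higher in OVK18. SLC34A2, a phosphate transporter, was at least 18602-fold higher in OVK18 (1202 and 1042 CPM). F2RL2, a protease-activated receptor, stood at 626 and 615 CPM with 1 count in SW48, and DMP1, a matrix protein of bone, at 602 and 635 CPM with 2 counts. QKI, an RNA-binding protein, stood at 267 and 298 CPM with 1 count in SW48, as did SLC7A14, a transporter, at 321 and 306 CPM, and KLHL13, a ubiquitin ligase adaptor, had 448 and 437 CPM and 3 counts. TEX11, RGS8, STOM, KIF1A and FGF5 had no count in SW48 and stood between 140.5 and 245 CPM in OVK18.

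Per length, in the deposited FPKM table, the most abundant transcripts were largely the same. EEF1A1 and 6 ribosomal protein genes, among them RPS27 and RPS24, were among the 10 highest in both lines. HSP90AA1, a chaperone, was among the 10 of SW48 alone, at 3035 and 2865 FPKM against 734 and 763 in OVK18. TMSB4X, which binds actin monomers, was among the 10 of OVK18 alone, at 4297 and 4027 FPKM against 109.9 and 128 in SW48. In CPM its log2 difference was -5.11 (SE 0.13, edgeR adjusted p = 6.62e-12). MIR1244-1 and MIR1244-2, copies of a microRNA gene, stood highest in that table but MIR1244-1 had no count in any of the 4 libraries in the count table, so their FPKM values are not used.

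Reference genes are commonly used to scale expression, and 15 were tested. Of these 6 were called higher in SW48 and 4 in OVK18, against 33.9% and 34.7% of all tested genes. Past 2-fold were 2 (13.3%, against 31.5% of all tested genes in either direction), both higher in SW48. They were TFRC, the transferrin receptor (587 and 592 against 208 and 209 CPM), and HPRT1 (110.1 and 148 against 48.1 and 49.3 CPM). The count was 1 with DESeq2 or limma-voom, and 1 without SW48 library B or OVK18 library A. Of the others 5 did not pass the test.

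**Figure D4:**
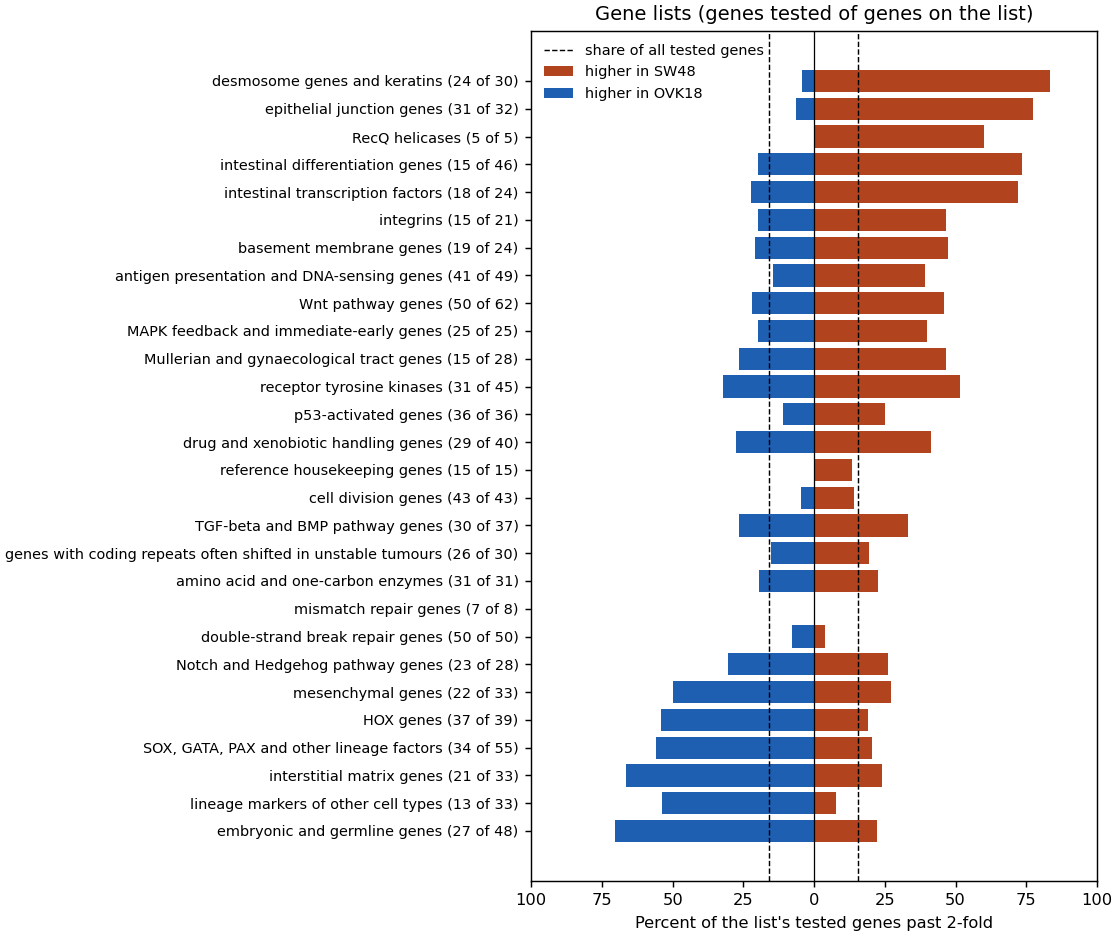
Share of each list's tested genes that were past 2-fold higher in SW48 (red, to the right) or in OVK18 (blue, to the left), in percent, with the numbers tested and listed beside each name; dashed lines mark the shares of all tested genes, 15.5% and 16.1%. Junction and desmosome lists reach furthest to the right, embryonic and germline genes and interstitial matrix furthest to the left, and mismatch repair has no bar.

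The same line difference was measured in the libraries with WRN guides, from the same 2 lines. Their levels do not enter the control difference, but all 12 libraries shared 1 filter, scaling and fit of the spread. The calls are therefore not independent of those with the control guide. With sgWRN2, 9459 genes (66.6%) were called and 4373 (30.8%) were past 2-fold; with sgWRN3 these were 9731 (68.5%) and 4427 (31.2%). Of the 4477 genes past 2-fold with the control guide, 3947 were past 2-fold in the same direction with both WRN guides as well, and 0 had the opposite sign with either. CDH1 had log2 differences of 12.49, 11.41 and 12.69 with sgCh2-2, sgWRN2 and sgWRN3, ZEB1 of -6.97, -6.32 and -6.56, and EGFR of 12.44, 13.18 and 14.56. The WRN difference, 1.49 with the control guide, was 0.73 and 1.14 with the guides against WRN itself. A test of the difference by guide, which shares the control libraries, passed for 10 of the named genes with sgWRN2 and for none with sgWRN3; their values are given with the results for a closer look.

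**Figure D5:**
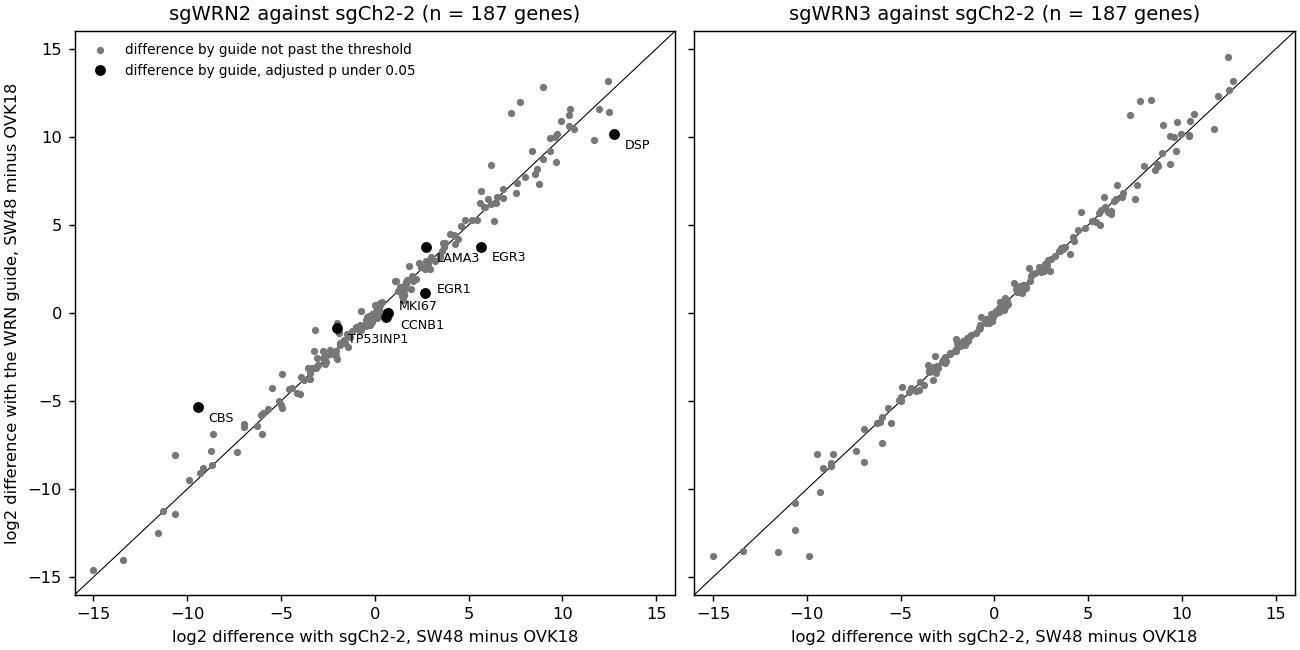
Log2 difference, SW48 minus OVK18, of the named genes with more than 3 counts in each line, with sgCh2-2 (x axis) and with sgWRN2 (left panel) or sgWRN3 (right panel) on the y axis; the line marks equal differences. Most points follow the line, and black points mark genes whose difference by guide had an edgeR adjusted p under 0.05.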

How the data were processed

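RNA was sequenced from SW48 and OVK18 cells that express Cas9, collected 72 h after a guide was delivered, in 6 groups of 2 libraries. Per the submitters' processing notes, the tools were bcl2fastq 2.18, STAR 2.5 and Cufflinks 2.2.1 with the hg19 genome; the annotation, and whether strand was used, are not given in the sources used here. The authors deposited a table of raw gene counts. Their second deposited table holds length-scaled values, taken here as FPKM from the values themselves, since no header names the unit. The count table holds 25343 genes, 92 spike-in features at 0 and 28 symbols that had turned into dates, which were never named.

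Groups came from the sample labels. Control-guide libraries held 18301780 to 32581625 counts, and other libraries 15423162 or more. Genes were filtered with filterByExpr over the 6 groups and TMM-scaled, and all 12 libraries were fitted with edgeR 4.0.16 in R 4.3.3 (robust quasi-likelihood, 6 residual degrees of freedom). The 2-fold test was glmTreat. P values were adjusted over all tested genes (Benjamini-Hochberg) with a threshold of 0.05. The fit was tested on simulated data. Libraries A and B of a line differed beyond sampling noise (chi-square per gene 20.8 in SW48 and 12.8 in OVK18).

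Members and gene lists were chosen with earlier results of these data known. Named were the 12 genes per direction with the largest called difference and at least 20 CPM, the 10 highest on in 1 line with at most 3 counts in the other, the 10 highest per length, and members of the 28 lists, with full statistics for up to 6 a list. Alternatives were other scalings, filters, fits and tools (DESeq2 1.42.0, limma 3.58.1), a replicate block, left-out libraries and the FPKM table with pseudocounts of 1 and 0.1. Promoters came from RefSeq (GRCh38.p14), the first entry of a symbol. Some items are not reported here.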

Additional observations from a re-analysis of the deposited data

Results flagged for a closer look

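The difference between SW48 and OVK18 itself differed between guides for 10 named genes, all with sgWRN2 (edgeR adjusted p over all tested genes, in a test that shares the control libraries). With sgWRN3 no named gene passed. Values below are in CPM, library A then B, and a negative difference means that SW48 stood lower against OVK18 with sgWRN2 than with the control guide.

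Of these genes 4 were close to absent in 1 line. CBS, the cystathionine enzyme, stood at 0.320 and 0.108 CPM in SW48 with the control guide and at 4.36 and 2.93 CPM with sgWRN2, while OVK18 stayed at 135 CPM or above with every guide (difference by guide 4.08, adjusted p = 0.00149). DSP, desmoplakin, rose in OVK18 from 0.194 and 0.124 to 1.40 and 1.04 CPM (-2.58, adjusted p = 0.00799). TES, a focal adhesion protein, went there from no count to 0.736 and 0.384 CPM (-6.70, adjusted p = 0.0111), and CCND2, cyclin D2, from 0 and 0.0310 to 1.02 and 0.493 CPM (-5.06, adjusted p = 0.0131). The last 2 fitted values rest on 1 count or none and depend on the prior count.

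Beside these 4 genes, genes chosen as off in a line were less fully off in the sgWRN2 libraries of both. The 357 genes on in OVK18 summed to 5.67 and 6.38 CPM in SW48 with the control guide, a level set by their choice, and to 26.7 and 20.6 CPM with sgWRN2 and 9.12 and 9.71 CPM with sgWRN3. The 235 genes on in SW48 summed in OVK18 to 4.58 and 4.12 CPM, 13.7 and 13.5 CPM and 4.75 and 6.52 CPM with the same guides. What part this has in the 4 differences was not tested.

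The other 6 genes were well above 0 in SW48. EGR1 and EGR3, immediate-early factors, rose in OVK18 with sgWRN2, EGR1 from 68.3 and 66.7 to 207 and 192 CPM (-1.49, adjusted p = 0.000264) and EGR3 from 1.09 and 1.42 to 4.49 and 3.51 CPM (-1.88, adjusted p = 0.00424). MKI67 and CCNB1, markers of dividing cells, fell further in SW48 than in OVK18: MKI67 was at 284 and 279 CPM in SW48 with sgWRN2 after 601 and 608 (-0.73, adjusted p = 0.0454), and CCNB1 at 89.7 and 81.6 CPM after 183 and 193 (-0.83, adjusted p = 0.0314). TP53INP1, a p53 target, stood at 145 and 134 CPM in SW48 with sgWRN2 and 68.0 and 74.0 CPM with the control guide (1.16, adjusted p = 0.0314), and LAMA3, a laminin chain, at 107 and 107 CPM against 70.7 and 66.8 CPM (0.98, adjusted p = 0.0221).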

How the results depend on the processing

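Over 16 alternatives the number of genes called with the control guide ran from 7315 to 10349, and over 7 alternatives each from 8384 to 9559 with sgWRN2 and from 8555 to 9831 with sgWRN3. With 1 library left out these counts were 8569 to 9228, 8384 to 9164 and 8555 to 9028, and the count past 2-fold was 4137 to 4435 (1993 to 2144 higher in SW48, 2144 to 2291 in OVK18). The left-out line then has 1 library, which is assumed to vary like the others. The count past 2-fold fell to 2576 (1292 higher in SW48, 1284 in OVK18) with genes of at least 5 CPM on average, where fewer genes were tested, and to 2421 (1180 and 1241) on log2(FPKM + 1), of which 2363 were shared with the 4477; the cause of the latter was not tested. With 20 in place of 10 CPM, 151 genes of SW48 and 211 of OVK18 were on in a single line, and with 5 CPM 314 and 479. Across the named genes 4209 of 4236 alternative values kept direction and call, whereas 14 values of 5 genes lost the call, 3 of 2 genes gained it and 10 of 2 genes, neither of them called, changed sign. These were CLDN7 (-0.0038 with RLE size factors, -0.0043 with DESeq2, and -0.0939 to 0.0969 with 1 library left out, below 0 without SW48 library A or OVK18 library B) and MLH3 (-0.0151 with RLE, -0.0150 with DESeq2, -0.000624 with limma-voom, -0.0082 in the 4 control libraries alone, and -0.0832 to 0.0759 with 1 library left out, below 0 without SW48 library B or OVK18 library A). Of 1344 list counts 91 moved by more than 1.5 times, most of them with the 5 CPM minimum or the FPKM values.

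Samples of a group share letters A and B with those of other groups, but the labels do not say what a letter marks. Across 10535 genes, A minus B of SW48 and of OVK18 had a correlation of 0.68 over 2 pairs of libraries, and genes share those libraries. With the letter as a replicate block, 9808 genes were called and 4514 were past 2-fold, with 9559 called with sgWRN2 and 9831 with sgWRN3, and no call of a named gene was lost.

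Depth limits what can be said below about 0.06 CPM in a line, and a gene off in 1 line has no measured ratio.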

Other observations

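Of 33 markers of cell types other than the labelled ones 13 were tested, with 1 past 2-fold higher in SW48 and 7 in OVK18. SYP, the synaptic vesicle protein synaptophysin, stood at 31.1 and 27.9 CPM in OVK18 and 0.769 and 1.13 CPM in SW48 (log2 difference -5.00, SE 0.24, edgeR adjusted p = 1.37e-09). TUBB3, a tubulin of neurons, was called higher in OVK18 but not past 2-fold (99.4 and 75.7 against 48.1 and 40.3 CPM), as was MITF, a factor of melanocytes (27.4 and 26.5 against 15.1 and 16.6 CPM). The neurofilament gene NEFM did not pass the test, and NEFH had no count in any of the 4 libraries. In SW48 the 1 gene past 2-fold was PTPRC, which encodes the leukocyte surface protein CD45 and was at 3.01 and 3.46 CPM, with 3 counts in OVK18.

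Outside the lists, SYNM and LMNA, intermediate filament genes chosen after their values were seen, differed in opposite directions. SYNM, synemin of muscle and glial cells, stood at 14.3 and 13.6 CPM in OVK18 and 0.256 and 0.378 CPM in SW48 (log2 difference -5.49, SE 0.37, edgeR adjusted p = 4.58e-08). LMNA, which encodes lamins A and C of the nuclear envelope, stood at 464 and 408 CPM in SW48 and 85.3 and 74.9 CPM in OVK18 (log2 difference 2.45, SE 0.17, edgeR adjusted p = 5.1e-08).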
